A study of Mus musculus with 6 samples.

Results

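The genes described here encode the constitutive subunits of the proteasome, with its activators, its inhibitor and its assembly factors. They were chosen by a rule on symbols, set with earlier results of these data known. The rule takes every gene named Psma to Psmg followed by a number, without the interferon-inducible subunits Psmb8, Psmb9 and Psmb10. This gave 45 of the 23183 genes in the tables. RNA sequencing was done on whole lung of C57BL/6 mice, with 3 libraries from animals given saline into the trachea and 3 from animals given lipopolysaccharide (LPS), a bacterial cell wall component that inflames the lung. Dose, time after instillation, age and sex are not in the labels used here. All titles say wild type, but the genotype field reads LCN2-/- for LPS 1 and LPS 2 and LCN4-/- for LPS 3, and wild type for the saline libraries, so that treatment and genotype cannot be told apart if that field is right. Lcn2 itself, the gene of lipocalin-2, stood at 13.60 and 13.29 in LPS 1 and LPS 2, which goes against a knockout, and at 8.20 to 11.28 in saline. The labels do not state whether each library is a different animal; the p-values therefore reflect only how these libraries vary, and that variation may be technical.

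The proteasome is the large protease of the cytosol and nucleus that degrades proteins tagged with ubiquitin. Its core particle is a barrel of stacked rings of alpha subunits, which form the gate, and beta subunits, some of which cut the chain. The regulatory particle caps the barrel: its base holds scaffold subunits and the ATPases that unfold substrates, and its lid removes ubiquitin. Other caps, the activators, open the gate without ubiquitin. In inflamed tissue interferons are known to induce alternative catalytic subunits and one class of activator, which change the peptides made for MHC class I molecules.

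Levels are the deposited log2(value + 1), and a difference is the LPS mean minus the saline mean of these levels, which understates the change of genes with low values. Depth is unknown because the tables hold no counts. Before the log, values seem to be per gene length, and levels of different genes are compared on that footing. P-values come from limma over 13116 genes tested, with Benjamini-Hochberg adjustment and a threshold of 0.05. The scaling between libraries bears on every direction below. The summed values before the log, over 18699 genes with a value in every library, were 467485 to 552369 in saline and 854335 to 885423 in LPS, and genes with high values tended to be higher in LPS.

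Transcripts of nearly all parts of the proteasome were higher in the libraries labelled LPS. Of the 45 members, 43 passed the filter on low values, and 37 of those were higher, 0 were lower and 6 did not pass the test. Of all genes tested 25.7% were called higher and 24.3% lower. The median difference was 0.92 over the tested members and 0.018 over all genes tested. At a difference of 1 or more, 17 members were called higher, against 9.26% of all genes tested. Every LPS value lay above every saline value for 38 members, against 32.7% of all genes tested. The members are abundant transcripts, and genes of like abundance also tended upward: of 1100 genes with a mean value between 5.65 and 7.20, the middle range of the members, 52.3% were called higher and 8.91% lower, with a median difference of 0.52. In the same range, 20 of 21 members were called higher and 0 lower, with a median of 0.91.

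**Figure D1:**
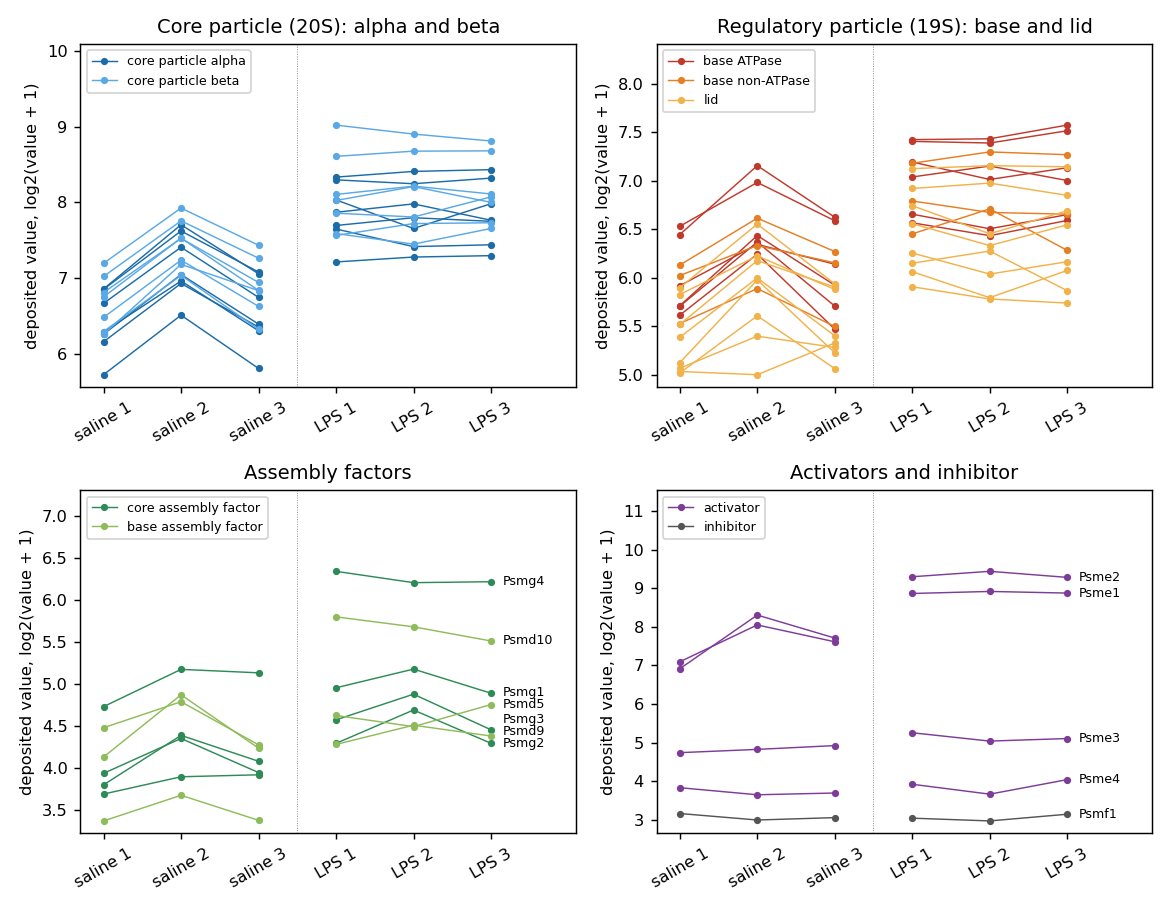
Deposited value, log2(value + 1), of each tested member (vertical axis) in each library (horizontal axis), with one line per gene within each group and colours for its role. Saline 2 lies above saline 1 and saline 3 for all 14 core subunits, and the LPS libraries lie close together; Psme3, Psme4 and Psmf1 are nearly level across libraries.

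**Figure D2:**
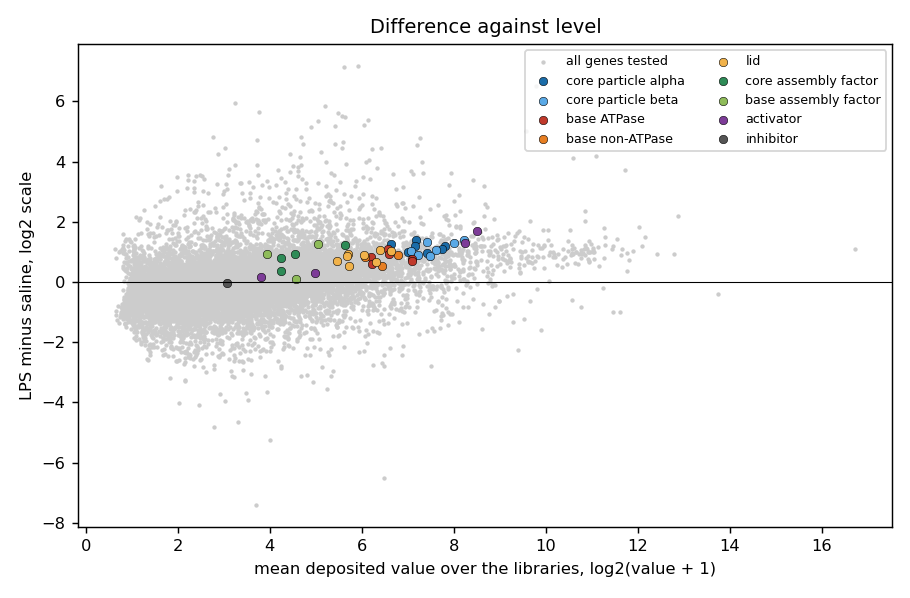
Difference between LPS and saline (vertical axis, log2 scale) against mean deposited value (horizontal axis, log2(value + 1)) for 13116 genes tested in grey, with the members in colour. Most members lie between 5 and 9 on the horizontal axis, where many genes of other kinds are also above 0.

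The size of the shift depended on how the libraries are scaled. After quantile normalization 16 members were called higher (20.5% of all genes tested) and 0 lower (21.2%), and their median difference was 0.39 against 0.010 over all genes tested. When the libraries were brought to equal sums, the median of all genes tested moved to -0.68 and that of the members to 0.14. On that scale 9 members were called higher, against 6.08% of all genes tested, and 5 were called lower, against 63.6%: Psme3 (-0.47), Psme4 (-0.60), Psmd5 (-0.66), Psmf1 (-0.73) and Psmg2 (-0.41). The 9 called higher with equal sums were Psme2, Psmb4, Psma4, Psmb5, Psmb3, Psme1, Psmd10, Psmg4 and Psma5, and 8 of them were also called with quantile normalization, all but Psme1 (limma adjusted p = 0.0533). All 14 core subunits had differences above 0 on each scale, while 10 of the 17 regulatory particle members did with equal sums.

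**Figure D3:**
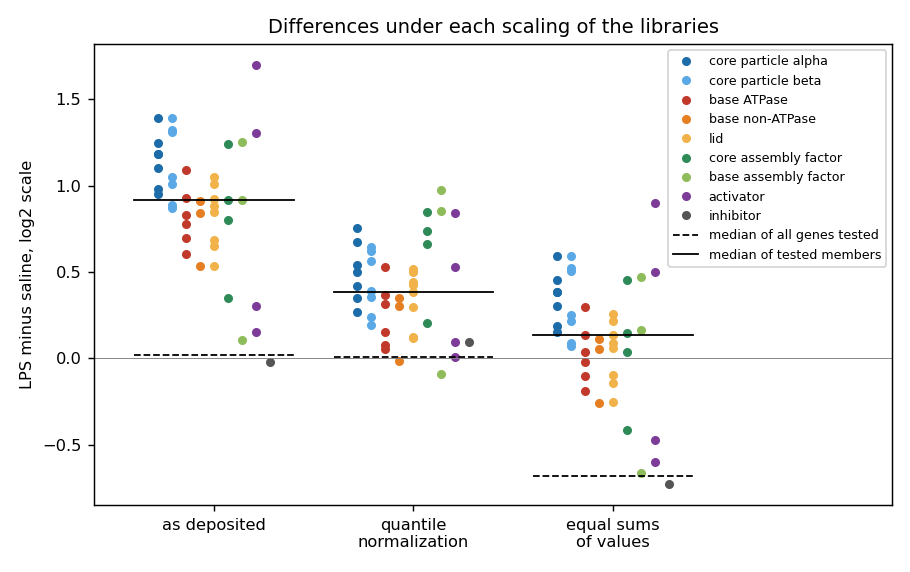
Difference between LPS and saline (vertical axis, log2 scale) of each tested member under 3 ways of scaling the libraries (horizontal axis). The solid line is the median of the tested members, at 0.92, 0.39 and 0.14, and the dashed line that of all genes tested, at 0.018, 0.010 and -0.68.

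All 7 alpha subunits, which gate the barrel, were higher in LPS, by 0.95 to 1.39, with a median of 1.18. Psma4 (chromosome 9, 54950781 to 54958034; coordinates here and below are RefSeq gene bounds in GRCm38.p6, the mm10 build) stood at 6.16, 6.93 and 6.35 in saline and 7.87, 7.98 and 7.76 in LPS. Its LPS values all exceeded its saline values, and it rose by 1.39 (SE 0.22; limma adjusted p = 0.00102), or 2.62-fold. Psma5 rose by 1.25, Psma2 by 1.18, Psma3 by 1.18 and Psma7 by 1.10, and the smallest rises were in Psma1 (0.98) and Psma6 (0.95). Psma2 and Psma7 were the most abundant alpha transcripts in both groups, at means of 7.21 and 7.18 in saline and 8.39 and 8.29 in LPS, and Psma5 was the least abundant, at 6.01 and 7.26. Psma8, the alpha subunit of the testis, did not pass the filter, with values of 0.18 to 0.74 in saline and 0.49 to 0.82 in LPS.

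All 7 constitutive beta subunits were higher as well, by 0.87 to 1.39, with a median of 1.05. Psmb4 and Psmb3, which have no catalytic activity, had the largest and the third largest rise, with the catalytic Psmb5 between them. Psmb4 (chromosome 3, 94884324 to 94886958) stood at 7.20, 7.92 and 7.43 in saline and 9.02, 8.90 and 8.81 in LPS. Psmb4 thus had the highest level of any core subunit in every library, and its groups did not overlap; it rose by 1.39 (SE 0.22; limma adjusted p = 0.00107), or 2.62-fold. Psmb3 (chromosome 11, 97703434 to 97713500) stood at 7.02, 7.76 and 7.26 in saline and at 8.61, 8.68 and 8.68 in LPS. Its groups were also apart, and it rose by 1.31 (SE 0.21; limma adjusted p = 0.00129). The structural subunits Psmb1 and Psmb2 rose by 1.05 and 1.01. Psmb11, the subunit of thymic epithelium, was near 0 in every library, at 0.038 or below, and was not tested.

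As deposited, all 3 catalytic beta subunits rose, Psmb5 with the largest difference. With equal sums Psmb6 (0.092) and Psmb7 (0.074) were not called (limma adjusted p = 0.645 and 0.729). Nor were they called with quantile normalization, at 0.24 and 0.19 (limma adjusted p = 0.258 and 0.387). Psmb5 (chromosome 14, 54614120 to 54617995), which has the chymotrypsin-like activity, stood at 6.26, 7.18 and 6.83 in saline and 8.02, 8.21 and 7.9997 in LPS, with no overlap. It rose by 1.32 (SE 0.24; limma adjusted p = 0.00196), or 2.496-fold. Psmb6 (chromosome 11, 70525324 to 70527858), the caspase-like subunit, stood at 6.48, 7.24 and 6.63 in saline and 7.56, 7.72 and 7.73 in LPS. The groups did not overlap, and Psmb6 rose by 0.89 (SE 0.22; limma adjusted p = 0.00813). Psmb7 (chromosome 2, 38588046 to 38643952), the trypsin-like subunit, stood at 6.75, 7.53 and 6.84 in saline and 7.86, 7.81 and 8.07 in LPS. It rose by 0.87 (SE 0.23; limma adjusted p = 0.0115), the smallest rise of a core subunit, again without overlap. Within each library, which removes any linear scaling, the log2 ratio of Psmb5 to Psmb6 was -0.024 ± 0.22 (SD, n = 3) in saline and 0.41 ± 0.12 (SD, n = 3) in LPS, a difference of 0.43. The groups did not overlap, and the exact 2-sided permutation test gave p = 0.1, the smallest value that 3 against 3 libraries allow (adjusted p = 0.125 over 5 such ratios). The ratio of Psmb5 to Psmb7 differed by 0.45 with groups that overlapped (exact permutation p = 0.2; adjusted p = 0.2).

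Promoters are shown for Psmb5, Psmb3, Psme1 and Psme2, members with large rises, since the members moved together. Psmb4 and Psma4 rose more than Psmb5, Psmb3 and Psme1 and are not shown, so the choice was not by size alone. The sequences are RefSeq's for build GRCm38.p6, the 250 bases before the annotated start, 5′ to 3′, and 37 of the 45 members were matched by symbol. Capitals mark matches, on either strand, to the core of the antioxidant response element (TGACNNNGC), to which factors of the NRF1 and NRF2 type bind, to the CCAAT box, to the core of the interferon-stimulated response element (GAAANNGAAA) and to the core of the gamma-activated site (TTCNNNGAA). Matches of different motifs were counted separately, also where they overlap, and no overlap occurs in the sequences shown.
Psmb5 promoter (chr14:54617996-54618245, minus strand): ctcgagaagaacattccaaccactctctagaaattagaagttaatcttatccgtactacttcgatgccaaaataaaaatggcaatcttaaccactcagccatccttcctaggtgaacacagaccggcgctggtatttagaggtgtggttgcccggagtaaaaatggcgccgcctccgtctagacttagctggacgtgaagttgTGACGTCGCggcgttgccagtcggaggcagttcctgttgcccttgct
Psmb3 promoter (chr11:97703184-97703433, plus strand): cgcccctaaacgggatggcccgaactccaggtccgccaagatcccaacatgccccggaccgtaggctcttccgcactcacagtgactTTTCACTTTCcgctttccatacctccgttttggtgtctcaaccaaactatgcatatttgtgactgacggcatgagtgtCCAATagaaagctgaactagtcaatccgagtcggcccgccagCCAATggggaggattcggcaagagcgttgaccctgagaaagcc
Psme1 promoter (chr14:55578244-55578493, plus strand): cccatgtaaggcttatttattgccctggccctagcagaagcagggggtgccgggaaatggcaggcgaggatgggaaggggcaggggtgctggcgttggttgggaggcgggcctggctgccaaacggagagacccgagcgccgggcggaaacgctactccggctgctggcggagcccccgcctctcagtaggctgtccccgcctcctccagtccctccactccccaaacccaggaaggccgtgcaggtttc
Psme2 promoter (chr14:55591102-55591351, minus strand): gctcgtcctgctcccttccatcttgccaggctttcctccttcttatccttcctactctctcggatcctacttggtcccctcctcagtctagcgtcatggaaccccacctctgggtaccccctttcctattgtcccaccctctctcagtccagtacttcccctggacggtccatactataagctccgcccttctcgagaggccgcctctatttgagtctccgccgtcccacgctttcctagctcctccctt
The Psmb5 sequence holds 1 match to the antioxidant response element, starting 47 bases before the start. The Psmb3 sequence holds the interferon-stimulated element 163 bases and CCAAT boxes 85 and 43 bases before the start. In the Psme1 and Psme2 windows these letters were not found. Over the matched members, the antioxidant element was found in 5 of 37 (13.5%; Psmb5, Psmb6, Psmc6, Psmd9 and Psmd12), against 11.5% of 27025 genes with a sequence of this length. The CCAAT box was found in 13 members (35.1%, against 37.5% of all), the interferon-stimulated element in 3 (8.11%, against 3.46%) and the gamma-activated site in 1 (2.70%, against 8.13%). A match is a description of letters and not of binding.

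Among the members, differences were smaller in the regulatory particle than in the core. Of its 17 subunits among the members 16 were higher, with a median of 0.84, against 1.14 over the 14 core subunits. A difference of 1 or more was reached by 3 of 17 against 10 of 14. Shfm1, a small lid subunit that the symbol rule leaves out, rose by 1.64 and is not in these counts. The medians kept this order with quantile normalization (0.31 and 0.46) and with equal sums (0.052 and 0.34). The regulatory subunits were on average at lower levels than the core subunits, and genes with high values tended to be higher in LPS. The part of level in this difference was not tested. As deposited, all 6 ATPases of the base, the ring that unfolds substrates, rose. Psmc4 rose by 1.09, Psmc5 by 0.93, Psmc6 by 0.83, Psmc1 by 0.78, Psmc3 by 0.69 and Psmc2 by 0.60. Psmc1 and Psmc3 were the most abundant of them, at 6.70 and 6.74 in saline and 7.48 and 7.44 in LPS. With equal sums none of the ATPases was called, and Psmc1 (-0.021), Psmc2 (-0.19) and Psmc3 (-0.10) turned. With quantile normalization Psmc4 alone of the ATPases was called (limma adjusted p = 0.0315). The ubiquitin receptor gene Psmd4 rose by 0.91, and the scaffold genes Psmd1 and Psmd2 by 0.84 and 0.54. Of the 8 lid subunits among the members, 7 rose. The rises ran from Psmd13 (1.05) and Psmd8 (1.01) through Psmd12 (0.92), Psmd6 (0.88), Psmd11 (0.85) and Psmd3 (0.69) to Psmd7 (0.65). The deubiquitinase gene Psmd14 stood at 5.13, 5.98 and 5.23 in saline and 6.06, 5.80 and 6.08 in LPS. Saline 2 lay above LPS 2, and its difference of 0.53 (95% interval 0.019 to 1.05) did not pass (limma adjusted p = 0.0776).

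**Figure D4:**
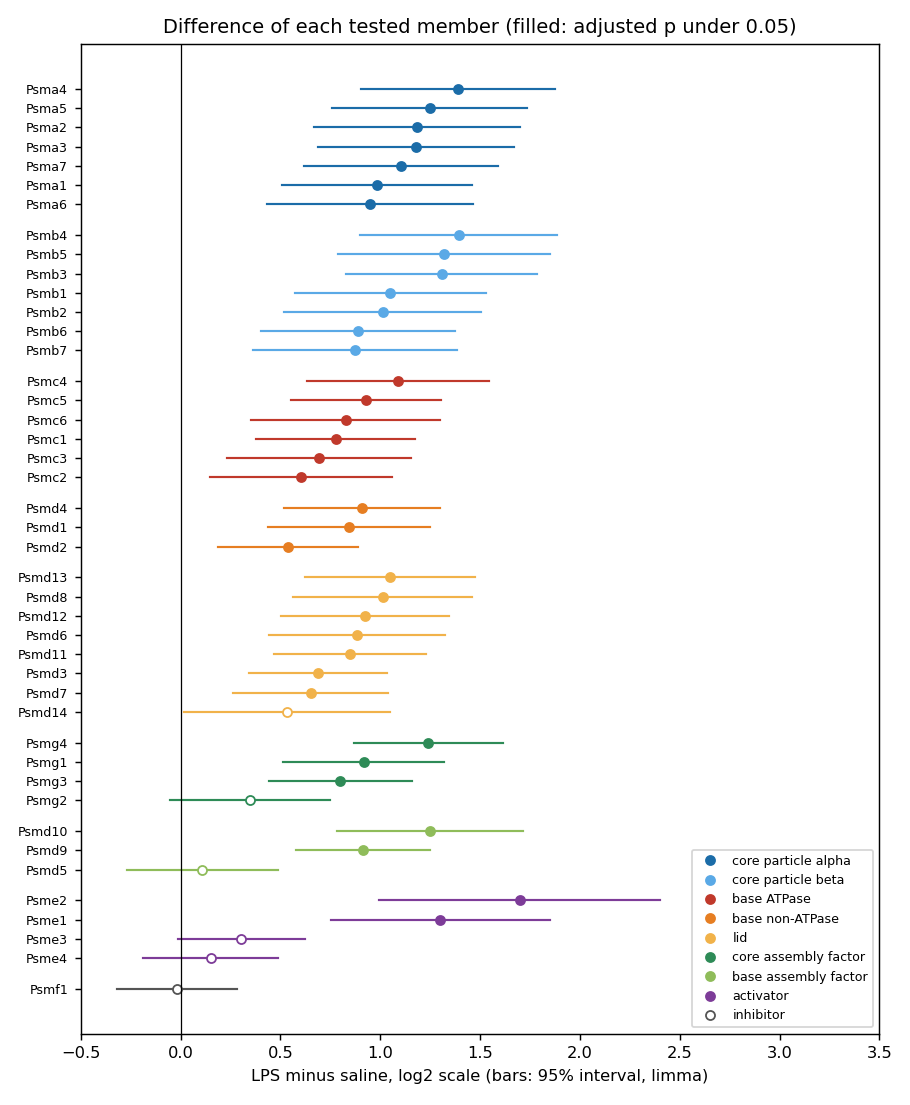
Difference between LPS and saline (horizontal axis, log2 scale) of the 43 tested members by role, with 95% intervals from limma. Filled points passed the adjusted threshold of 0.05 and open points did not. The 14 core subunits lie between 0.87 and 1.39, and Psmf1 lies at -0.019.

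The regulatory particle members were also set against the core within each library, again without Shfm1. The mean of the 6 base ATPases minus the mean of the 14 core subunits was -0.56, -0.72 and -0.64 in saline and -0.94, -0.99 and -0.92 in LPS. All LPS values were lower, by 0.31 on average. For the 11 non-ATPase subunits of base and lid the same measure was -1.04, -1.33 and -1.08 in saline and -1.43, -1.48 and -1.52 in LPS, again without overlap and with a difference of -0.33. Both gave p = 0.1 in the exact 2-sided permutation test, the smallest possible, and adjusted p = 0.125 over 5 roles, so neither could pass. Saline 2 lay nearest to LPS in both. These are differences of mean log2(value + 1), so scaling bears on them through the added 1: with equal sums they were -0.31 and -0.32, and with quantile normalization -0.22 and -0.15.

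Assembly factors, which build the complex and leave it, rose in part. Of those for the core particle, which act as pairs (Psmg1 with Psmg2, Psmg3 with Psmg4), 3 of 4 were higher. Psmg4 stood at 4.73, 5.17 and 5.13 in saline and 6.34, 6.20 and 6.22 in LPS, well apart, and rose by 1.24 (SE 0.17; limma adjusted p = 0.000501), with the lowest p of all members. Psmg1 rose by 0.92 and Psmg3 by 0.80, while Psmg2 had 3.94 to 4.35 in saline and 4.29 to 4.69 in LPS, with overlap, and a difference of 0.35 (95% interval -0.052 to 0.75; limma adjusted p = 0.129). Of the chaperones of the base, Psmd10 (gankyrin) rose by 1.25 and Psmd9 by 0.91. Psmd5 stood at 4.48, 4.79 and 4.28 in saline and 4.63, 4.49 and 4.76 in LPS, which overlapped, with a difference of 0.11 (95% interval -0.27 to 0.49; limma adjusted p = 0.609). Set against the core within each library, base assembly factors were lower in LPS by 0.38 without overlap (exact permutation p = 0.1; adjusted p = 0.125) and core assembly factors by 0.31 with overlap (exact permutation p = 0.2; adjusted p = 0.2). With quantile normalization both turned, to 0.11 for base and 0.15 for core assembly factors.

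Among the activators, the interferon-inducible pair stood apart from the other two in size. Psme2 (chromosome 14, 55587440 to 55591101) stood at 6.91, 8.31 and 7.71 in saline and 9.30, 9.44 and 9.28 in LPS, the highest level of any member in LPS. It rose by 1.70 (SE 0.31; limma adjusted p = 0.00228), or 3.24-fold, the largest difference of any member. Psme1 (chromosome 14, 55578494 to 55581527), whose product forms a ring with that of Psme2, stood at 7.09, 8.05 and 7.61 in saline and 8.87, 8.92 and 8.88 in LPS. It rose by 1.30 (SE 0.24; limma adjusted p = 0.00244), without overlap. Psme3, the nuclear activator of the same family, stood at 4.74, 4.82 and 4.92 in saline and 5.25, 5.04 and 5.10 in LPS. The groups did not overlap, but the difference of 0.30 (95% interval -0.013 to 0.62) did not pass (limma adjusted p = 0.0993). Psme4, a large activator of another family, stood at 3.83, 3.65 and 3.69 in saline and 3.92, 3.66 and 4.04 in LPS, with overlap and a difference of 0.15 (95% interval -0.19 to 0.49; limma adjusted p = 0.422). Psmf1, an inhibitor of the core particle in vitro, stood at 3.16, 2.99 and 3.05 in saline and 3.04, 2.97 and 3.14 in LPS. Its groups overlapped throughout, with a difference of -0.019 (95% interval -0.32 to 0.28; limma adjusted p = 0.914). Within libraries the log2 ratio of Psme1 to Psme3 was higher in LPS by 0.99 and that of Psme2 to Psme3 by 1.39, both without overlap (exact permutation p = 0.1, adjusted p = 0.125, for each). The mean of all 4 activators, set against the core within each library, was nonetheless lower in LPS by 0.27, without overlap (exact permutation p = 0.1; adjusted p = 0.125). Psme2 shares 28.3% of its windows of 50 bases with the near-identical gene Psme2b, which fell from 3.14 ± 0.18 to 2.27 ± 0.25 (SD, n = 3 each; limma adjusted p = 0.00314), so that reads may have been divided between them.

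Of the subunits that interferon induces in place of the catalytic ones, Psmb8 and Psmb10 were higher and Psmb9 did not pass the test. Psmb8, which replaces Psmb5, stood at 5.81, 7.07 and 6.74 in saline and 7.86, 7.85 and 7.72 in LPS, and Psmb10, which replaces Psmb7, at 5.51, 6.66 and 6.22 and at 7.74, 7.73 and 7.51. They rose by 1.27 and 1.53 (limma adjusted p = 0.00613 and 0.00174). Psmb9, which replaces Psmb6, stood at 5.20, 6.15 and 5.97 in saline and 5.89, 5.97 and 5.95 in LPS. Its LPS values lay within the saline range, with a difference of 0.16 (95% interval -0.36 to 0.69; limma adjusted p = 0.582). With equal sums Psmb10 stayed higher, Psmb8 was no longer called (0.47; limma adjusted p = 0.127) and Psmb9 was called lower (-0.63; limma adjusted p = 0.0247). With quantile normalization Psmb8 was not called either (0.62; limma adjusted p = 0.0920). Within libraries, the log2 ratio of Psmb8 to Psmb5 was -0.22 ± 0.20 in saline and -0.27 ± 0.10 in LPS (SD, n = 3 each), a difference of -0.051 (exact permutation p = 0.8; adjusted p = 0.8). The ratio of Psmb9 to Psmb6 was -1.03 ± 0.33 in saline and -1.75 ± 0.054 in LPS (SD, n = 3 each), a difference of -0.73, with every LPS library below every saline library (exact permutation p = 0.1; adjusted p = 0.15 over 3 pairs). The ratio of Psmb10 to Psmb7 differed in the other direction, at -0.92 ± 0.32 in saline and -0.25 ± 0.27 in LPS (SD, n = 3 each), a difference of 0.67, with every LPS library above (exact permutation p = 0.1; adjusted p = 0.15). The exons of Psmb9 overlap those of Tap1, on the opposite strand, by up to 212 bases, and the strand setting of the counting is not stated in the sources at hand.

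**Figure D5:**
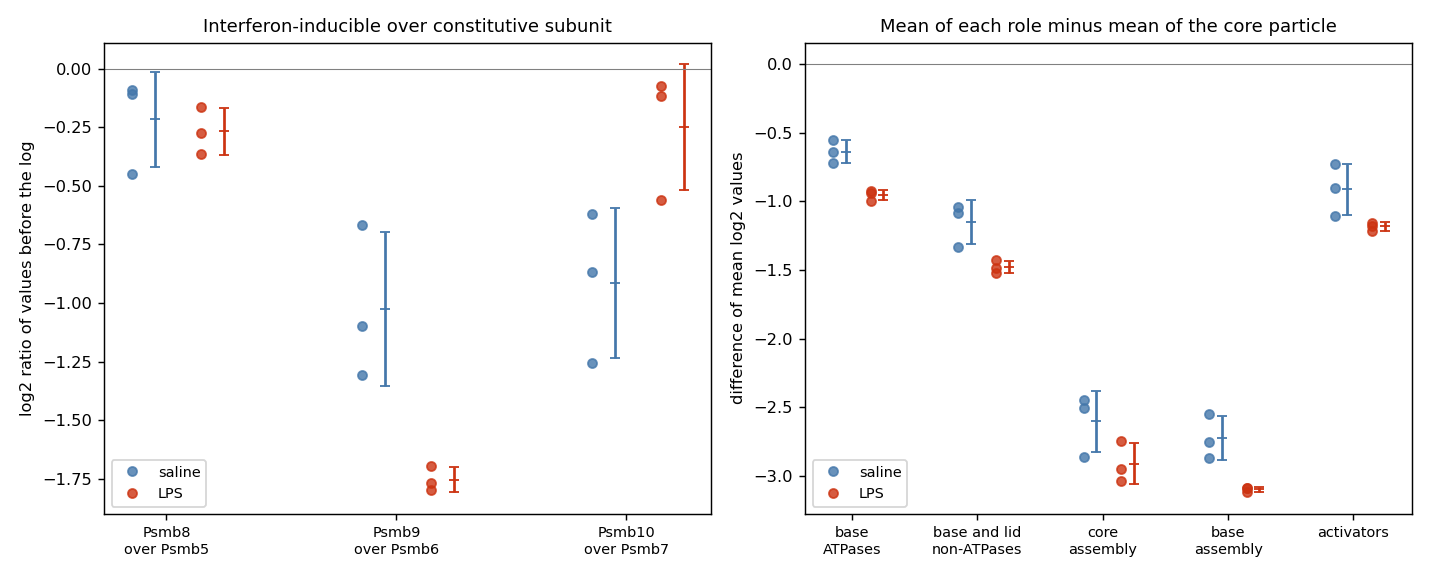
Left, log2 ratio within each library of each interferon-inducible beta subunit to the constitutive subunit it replaces; right, mean log2 value of each role minus that of the core particle. Points are libraries and bars mean ± SD (n = 3): LPS lies below saline for Psmb9 over Psmb6 and above it for Psmb10 over Psmb7, and below it for base ATPases and non-ATPases.

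Among the saline libraries, too, the members moved together. Saline 2 had the highest saline value for 38 of the 43 tested members (88.4%), against 38.9% of all genes tested. Genes of like level shared part of this. Over 1100 genes with a mean value between 5.65 and 7.20, the median of saline 2 minus saline 1 was 0.31. The median of saline 2 minus saline 3 was 0.29 over these genes. For the 21 members in that range these medians were 0.66 and 0.54, and over all genes tested -0.017 and 0.021. The mean over the core subunits was 6.54 in saline 1, 7.31 in saline 2 and 6.71 in saline 3, and 7.99, 7.98 and 8.002 in LPS 1, LPS 2 and LPS 3. Saline 2 thus stood between the other saline libraries and LPS, while the LPS libraries were nearly equal. The SD was smaller in LPS than in saline for 38 of 43 members (63.4% of all genes tested), with a median SD of 0.09 in LPS and 0.37 in saline over the members and 0.15 and 0.21 over all genes tested. As a share of the summed values before the log, the members took 0.551%, 0.792% and 0.656% in saline 1 to 3 and 0.804%, 0.794% and 0.817% in LPS 1 to 3, so that on this measure saline 2 was about level with LPS. Without saline 2, 39 members were called higher.

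As deposited, markers of neutrophils and of monocytes and macrophages were also higher in LPS. The 5 neutrophil markers in the tables summed to 639 to 1931 before the log in saline, with the highest sum in saline 2, and to 9661 to 25048 in LPS, and all 5 were called higher; none was at 0. All 6 monocyte and macrophage markers were called higher, with sums of 282 to 400 in saline, highest in saline 2, and 548 to 742 in LPS. All 5 B cell markers and 3 of 5 fibroblast markers were called lower. So were 3 of 5 T cell markers, 1 of 5 markers each of alveolar type 2 and type 1 cells and 2 of 5 endothelial markers, against 24.3% of all genes tested. All 5 markers of cardiac muscle, which can come with a lung piece, were lower, and summed to 175 to 1429 in saline and 29.5 to 84.0 in LPS 1 and LPS 2. All 5 neutrophil, 5 B cell and 5 cardiac markers were called in the same direction with quantile normalization and with equal sums. Of the monocyte and macrophage markers 3 of 6 were called higher with quantile normalization and 2 of 6 with equal sums, where Csf1r (-0.13) and Chil3 (-0.25) turned. All 5 alveolar type 2 and all 5 endothelial markers were called lower on both of these scales, on which 21.2% (quantile) and 63.6% (equal sums) of all genes tested were lower. With quantile normalization 3 of 5 T cell, 3 of 5 alveolar type 1 and 4 of 5 fibroblast markers were lower, and with equal sums 5, 4 and 5. Among the LPS libraries the neutrophil sum differed by more than 2-fold while the mean over the core subunits was between 7.98 and 8.002. In whole tissue, fewer cells of a type and less RNA per cell cannot be told apart, and the part of cell composition in the members' differences was not tested.

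Other genes of the pathway rose less uniformly, with counts again read against 25.7% higher and 24.3% lower. Of 11 proteasome-associated genes tested, 5 were higher and 1 lower, with a median of 0.34. Shfm1, the small lid subunit now called Sem1, rose by 1.64, and Pomp, the maturation factor of the core particle, by 1.37. Zfand5, an activator of the proteasome, rose by 1.04 and Txnl1 by 0.89. The gene that was lower is Ube3c, a ubiquitin ligase (-0.48), and the ubiquitin receptor Adrm1 had a difference of 0.23 that did not pass (limma adjusted p = 0.225). Of 17 ubiquitin genes and shuttle factors, 5 were higher and 1 lower, with a median of 0.33. The ubiquitin precursor gene Rps27a rose by 1.35, Ufd1l, a cofactor of the unfoldase VCP, rose by 0.76, and the ubiquitin-activating enzyme gene Uba6 fell by 0.57. Of 13 regulators of proteasome genes, 6 were higher and 2 lower, with a median of 0.34. Maff (2.34) and Mafk (0.89), small partners of NRF factors, and Nfe2l2 (0.89), the gene of NRF2, rose, while Ddi2, the protease that activates NRF1, fell by 1.08 (SE 0.20; limma adjusted p = 0.00232) and Foxo4 by 0.69. Nfe2l1, the gene of NRF1 and a known activator of proteasome genes, had a difference of 0.31 that did not pass (limma adjusted p = 0.124). Zfand5, Txnl1, Ube3c, Ufd1l and Uba6 have no value in LPS 3. With equal sums, 2 of the associated genes were called higher and 6 lower. The counts were 1 and 9 among the ubiquitin genes and 1 and 6 among the regulators, where the gene called higher was Maff. Mafk (0.11) and Nfe2l2 (0.091) were not called with equal sums, and Nfe2l1 was called lower (-0.48, limma adjusted p = 0.0220). On that scale 6.08% of all genes tested were called higher and 63.6% lower.

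Some members are less certain than others for reasons of counting. Of the 45 members, 8 share more than 10% of their transcript windows of 50 bases with transcripts of other genes in GENCODE M21, and the gene sharing most was in the tables for Psme2 alone. The share was 54.1% for Psmb5 and 49.1% for Psma5, and the treatment of reads that match several genes is not stated in the sources at hand. Exons of 9 members overlap exons of another gene on the opposite strand, among them Psma4, Psmb7, Psmc3, Psmd1 and Psmd13.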

How the data were processed

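Per the submitters' processing notes, TopHat aligned the reads to mm10. Counting tool, annotation and the scaling of libraries are not stated in the sources used here. The labels' protocols name Trizol extraction and a directional library kit. The authors deposited 1 table per library with values on a log2 scale, which the values themselves show to be log2(value + 1). For genes with 1 transcript, low values times length gathered more (27 to 34 genes in the fullest bin) than values alone (16 to 21). The LPS 3 table lacks 4484 genes (19.3%), none of them a member. The model was limma's (version 3.58.1, R 4.3.3), using a variance trend, over genes reaching 1 before the log in at least 3 libraries, with Benjamini-Hochberg adjustment and a threshold of 0.05. The fit was tested on simulated data. Ratios within a library were compared with exact 2-sided permutation tests. Libraries were grouped by title. The members and lists were chosen with earlier results of these data known. By rule, library values are given for the catalytic and inducible beta subunits, activators, inhibitor and the 6 members with the largest called differences, and companion lists name up to 4 called genes; 1 of these is not reported here. Psmg4, Psmd14, Psmd5, Ube3c, Adrm1, Foxo4 and Nfe2l1 were added after their values were seen. Alternatives covered scaling, filter, pseudocount, trend, threshold, replicate block and each library left out.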

Additional observations from a re-analysis of the deposited data

How the results depend on the processing

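The count of members called higher, 37, was 31 to 39 with a threshold of 0.01, no filter, a mean value of at least 5, a pseudocount of 0.1, no variance trend, the replicate block (36) or any 1 library left out, and 39 without saline 2 and LPS 3 together, an alternative chosen after seeing the data. Scaling moved it: quantile normalization gave 16 higher, and equal sums gave 9 higher and 5 lower. Directions turned with equal sums for Psmc1 (-0.021), Psmc2 (-0.19), Psmc3 (-0.10), Psmd14 (-0.25), Psmd2 (-0.26), Psmd3 (-0.098), Psmd5 (-0.66), Psmd7 (-0.14), Psme3 (-0.47), Psme4 (-0.60) and Psmg2 (-0.41), and with quantile normalization for Psmd2 (-0.015), Psmd5 (-0.092) and Psmf1 (0.095). Leaving out 1 library gave -0.0097 (without saline 3) to 0.25 for Psmd5, -0.065 to 0.027 for Psmf1 (positive without saline 1 or without LPS 2), and -0.17 to 0.012 (above 0 without saline 2 or without saline 3) for the ratio of Psmb8 to Psmb5. Set against the core, base (0.11) and core (0.15) assembly factors turned with quantile normalization, also chosen after seeing the data. The other role measures, and the ratios of Psmb9 to Psmb6 and Psmb10 to Psmb7, kept their direction in the alternatives run. No alternatives are given for the ratios of Psmb5 to Psmb6 and to Psmb7, or of Psme1 and Psme2 to Psme3. Of all genes tested, 20.5% were higher and 21.2% lower with quantile normalization, and 6.08% and 63.6% with equal sums. Beside these shares, companion counts changed as follows. Proteasome-associated genes: 2 higher and 6 lower with equal sums, and 0 lower with the replicate block, at 0.01 and without saline 2 and LPS 3; 0 to 1 lower with 1 library left out. Ubiquitin and shuttle genes: 1 higher and 3 lower with quantile normalization, 1 higher and 9 lower with equal sums, 3 higher and 0 lower with the replicate block or at 0.01, 0 lower with no filter or a mean of at least 5, and 3 to 8 higher and 0 to 1 lower with 1 library left out (8 without saline 2). Regulators: 1 higher and 6 lower with equal sums, 1 lower with no filter or at 0.01. The cause of these changes was not tested. Same-numbered saline and LPS libraries did not deviate together (correlations of deviations -0.23, -0.078 and -0.25). With 3 libraries a group, such correlations cannot decide whether the numbers pair them. Depth could not be assessed from these tables, and 3 libraries a group cannot give an exact p below 0.1.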
